A study of Mus musculus with 4 samples.

Results

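The 36 genes described here encode proteins of the centromere and the kinetochore. They were chosen by name from their known roles by a rule that uses no measured value, although earlier results of these data were known. All 36 were found among the 14533 genes of the deposited table. Of these, 34 stood in the gene annotation under the symbol used here, Ska2 stood there as Fam33a and Ska3 as F630043A04Rik. They fall into 7 roles: CENP-A and its loading factors (3 genes), the constitutive centromere-associated network (CCAN, 11 genes), the outer kinetochore network that binds microtubules (8 genes), motors and checkpoint adaptors of the outer corona (6 genes), the SKA complex (3 genes), the chromosomal passenger complex (3 genes) and the shugoshins (2 genes).

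RNA came from mouse embryonic stem cells (ESCs) with no labelled genotype that had been sorted by flow cytometry in G1-phase. The labels give late G1-phase and the series description gives early G1-phase, and the labels name no cell line. Serum ESCs were grown with fetal calf serum and LIF. 2i ESCs were grown in a defined serum-free medium with LIF and 2 kinase inhibitors, PD0325901 against MEK and CHIR99021 against GSK3. An adaptation of over 20 days is recorded for the libraries of both conditions. There were 2 libraries per condition. The study calls them biological replicates, and neither it nor the labels say whether they came from separate cultures. The errors given rest on the spread between these libraries, over all genes as well as within each gene. That spread may in part be technical.

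A chromosome is pulled to a spindle pole through its kinetochore, a stack of protein complexes built on centromeric chromatin in which the histone H3 variant CENP-A replaces H3. The CCAN sits on this chromatin through most of the cell cycle, whereas the outer layers assemble on it as cells enter mitosis. In many dividing cells CENP-A is reloaded after mitosis in G1-phase. Many transcripts of the outer layers there peak in G2-phase and mitosis and are low in G1-phase, the only phase measured here. This periodic transcription is commonly tied to promoter elements known as the CHR (cell cycle genes homology region) and the CCAAT box, and that of genes for S-phase entry to E2F sites.

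Promoters are shown for the 4 genes with the largest and the 2 with the smallest serum over 2i fold change among the 32 that had an entry in the RefSeq promoter table (GRCm38.p6), so that their letters can be read beside the values below. Spc24, Zwilch, Ska1 and Incenp had no entry. Each sequence runs 5′ to 3′ on the gene's strand, from 250 bases before to 50 after the start. Capitals mark the CCAAT box (CCAAT) and the CHR (TTTGAA or TTCGAA), searched on both strands. Cenpe (chr3:135212313-135212612, plus strand), Nuf2 (chr1:169531415-169531714, minus strand), Cenpf (chr1:189688037-189688336, minus strand) and Birc5 (chr11:117848987-117849286, plus strand) stood at the serum end, and Ska2 (chr11:87109011-87109310, plus strand) and Zwint (chr10:72654596-72654895, plus strand) at the other.
Cenpe: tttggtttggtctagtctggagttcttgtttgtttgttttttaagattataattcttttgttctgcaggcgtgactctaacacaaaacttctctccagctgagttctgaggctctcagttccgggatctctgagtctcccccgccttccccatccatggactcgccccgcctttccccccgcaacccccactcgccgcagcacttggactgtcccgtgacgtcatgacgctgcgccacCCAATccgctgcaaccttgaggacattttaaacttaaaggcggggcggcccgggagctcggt
Nuf2: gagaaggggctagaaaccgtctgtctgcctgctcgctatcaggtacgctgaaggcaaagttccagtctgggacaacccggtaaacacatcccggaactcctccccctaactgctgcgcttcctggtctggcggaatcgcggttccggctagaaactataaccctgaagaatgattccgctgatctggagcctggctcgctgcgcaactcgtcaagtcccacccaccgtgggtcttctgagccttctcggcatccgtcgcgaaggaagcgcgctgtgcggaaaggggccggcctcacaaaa
Cenpf: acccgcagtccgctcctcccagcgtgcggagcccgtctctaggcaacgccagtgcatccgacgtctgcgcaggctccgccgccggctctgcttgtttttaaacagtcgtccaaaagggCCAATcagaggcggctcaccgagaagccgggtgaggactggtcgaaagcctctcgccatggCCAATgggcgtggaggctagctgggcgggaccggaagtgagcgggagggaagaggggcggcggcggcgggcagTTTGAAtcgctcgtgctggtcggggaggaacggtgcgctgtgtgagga
Birc5: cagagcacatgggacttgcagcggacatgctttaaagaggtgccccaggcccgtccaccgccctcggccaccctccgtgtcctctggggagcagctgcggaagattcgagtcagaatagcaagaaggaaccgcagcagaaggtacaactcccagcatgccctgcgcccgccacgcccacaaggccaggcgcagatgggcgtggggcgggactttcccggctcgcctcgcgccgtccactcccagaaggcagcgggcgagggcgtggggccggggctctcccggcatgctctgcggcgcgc
Ska2: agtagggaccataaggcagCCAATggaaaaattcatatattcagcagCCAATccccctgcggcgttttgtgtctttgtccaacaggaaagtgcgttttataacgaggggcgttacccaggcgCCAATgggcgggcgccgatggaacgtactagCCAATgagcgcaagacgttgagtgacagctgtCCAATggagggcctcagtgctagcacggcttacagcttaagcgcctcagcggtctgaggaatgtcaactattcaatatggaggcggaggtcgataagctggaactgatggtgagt
Zwint: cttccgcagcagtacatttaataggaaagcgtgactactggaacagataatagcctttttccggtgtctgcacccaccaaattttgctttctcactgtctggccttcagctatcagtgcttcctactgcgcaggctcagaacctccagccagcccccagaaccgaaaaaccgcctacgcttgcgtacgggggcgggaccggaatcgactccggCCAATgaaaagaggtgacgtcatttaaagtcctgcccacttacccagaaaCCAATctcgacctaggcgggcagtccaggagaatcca

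The marked letters did not follow the order of fold change among these genes. Cenpf held 2 CCAAT boxes, whose first bases stood at -132 and -71, and a CHR that began 3 bases into the transcript. Cenpe held a single CCAAT box, while Nuf2 and Birc5 held neither element. Ska2 held 5 CCAAT boxes and Zwint 2, without a CHR. Across the 32 genes with a promoter, 14 (43.8%) held a CHR, against 19.2% of all 32851 promoters of this length and 16.5% of the 9530 tested genes with an entry. A CCAAT box was found for 20 (62.5%), against 37.4% of all promoters and 44.1% of tested genes. The E2F words searched were TTCCCGC, likewise with other inner letters TTCGCGC, to which were added TTGCCGC and, as the last of the set, TTGGCGC. At least 1 of them was found for 11 (34.4%), against 9.57% and 20.6%. The word TTGGCGC read on the other strand overlaps CCAAT by 4 letters, and 1 CCAAT box of Ska2 overlaps such a match. Of the 22 genes with a promoter whose serum values both exceeded both 2i values, 10 held a CHR and 13 a CCAAT box, and of the other 10 genes 4 and 7 did. A match is a run of letters and not an occupied site.

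Values are normalized counts, that is reads per gene divided by a size factor for each library. Fold changes are serum over 2i on the log2(normalized count + 1) scale with their standard error (SE), from limma fitted to the 13005 genes whose mean reached 50 normalized counts in serum or in 2i. All 36 genes passed this minimum, and their values lay between 60.1 and 4600 normalized counts. The variance of each gene was drawn by limma toward a trend over all genes tested, with 4.41 prior degrees of freedom. An SE is thus not the spread of that gene's own libraries alone. In bulk RNA, a smaller share of cells that express a gene and less of its RNA per cell cannot be told apart.

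Most centromere and kinetochore genes were higher in serum ESCs. The median log2 fold change of the 36 genes was 0.90, against 0.0047 over all genes tested, and 34 genes had a positive value, against 50.3% of all genes. Both serum libraries lay above both 2i libraries for 25 genes (69.4%), against 20.5% of all genes, and below them for Zwint alone, against 19.4%. The log2 fold change exceeded 1, a 2-fold difference, for 14 genes, against 9.89% of all genes, and was below -1 for 0, against 15.9%. No single gene passed the test after adjustment. The adjusted p-values of the 36 genes ran from 0.753 to 0.996 (limma, Benjamini-Hochberg over all genes), and of all genes tested 0% passed toward serum and 0.0154% toward 2i. With p-values left unadjusted (under 0.05) and means 2-fold apart, 11 of the 36 genes were higher in serum ESCs, against 2.97% of all genes, and 0 were higher in 2i ESCs, against 3%. That count was 6 without serum replicate 1, against 1.78% of all genes in that fit, and 0 without serum replicate 2, against 0.361%. It was 12 when 2i replicate 1 was left out, against 6.19%, and 9 when 2i replicate 2 was, against 2.68%. The background thus moved with the library left out. DESeq2 on whole reads called 4 genes after adjustment (Birc5, Cenpe, Nuf2 and Ska1), against 0.561% of all genes toward serum, and edgeR called 0 of the 36 and 0 of all genes.

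**Figure D1:**
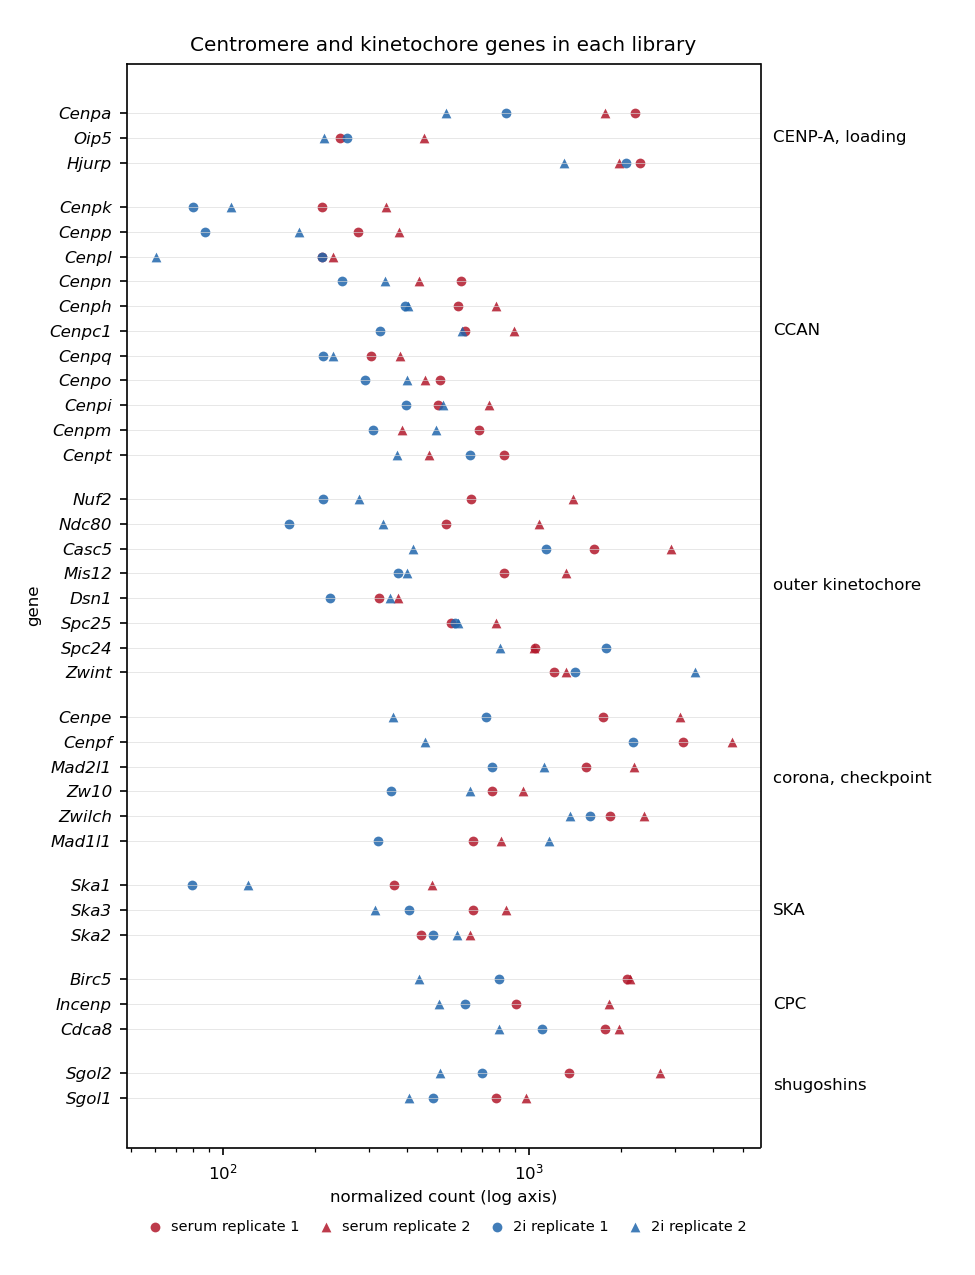
Normalized count (horizontal log axis) of each centromere and kinetochore gene (vertical axis, grouped by role) in the 4 libraries; red marks are serum and blue marks 2i, circles replicate 1 and triangles replicate 2. Both red marks lie to the right of both blue marks for 25 of 36 genes, and to the left for Zwint.

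The libraries differed in ways that the conditions did not set. They held 18939401 to 26570098 whole reads, of which protein-coding genes took 46.9% to 76.3% and the 10 genes with most reads 17.5% to 50.6%, with the extremes in the 2 serum libraries. The first principal component (54.0% of the variance) separated replicate 1 from replicate 2 and the second (30.4%) serum from 2i. All 10 ESC markers were in the table, with 6 higher in serum ESCs and a median log2 fold change of 0.39. Of 7 primitive endoderm markers 4 were in the table, with summed normalized counts of 72.0 and 109 with serum and 332 and 256 with 2i, and the tested Gata4 and Gata6 were lower in both serum libraries than in either 2i library. Of 7 fibroblast markers 2 were in the table, with sums of 193 to 230 with serum and 58.2 to 199 with 2i. Of 5 trophectoderm markers 3 were in the table, with sums of 229 to 360 with serum and 213 to 2696 with 2i. Most of the highest sum was Elf5, with 2215 normalized counts in 2i replicate 1 and 85.4 in 2i replicate 2. All 3 trophectoderm genes overlapped between the conditions. No marker in the table was at 0 in any library. The part of these markers and of library composition in the results on kinetochore genes was not tested.

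At the base of the kinetochore, CENP-A itself stood apart from its loading factors. Cenpa (chromosome 5, 30969150 to 30977200, plus strand, mm9) encodes the centromeric histone. It reached 2225 and 1768 normalized counts in the serum libraries, against 841 and 537 in the 2i libraries, with a log2 fold change of 1.56 ± 0.46. The groups lay well apart, and Cenpa was also the gene with the highest mean level per length of the 36, 992 normalized counts per kb of its longest transcript. Hjurp, the chaperone that deposits CENP-A, was measured at 2306 and 1974 normalized counts with serum and at 2070 and 1300 with 2i. These overlapped, because only 2i replicate 2 was below the rest, and the log2 fold change was 0.38 ± 0.46. Oip5, a subunit of the MIS18 complex that prepares centromeres for CENP-A, had 241 and 455 normalized counts with serum and 254 and 214 with 2i. Here serum replicate 2 alone was high, and the log2 fold change was 0.50 ± 0.53. The log2 ratio of Cenpa to Hjurp, per kb, was 1.80 and 1.69 with serum and 0.55 and 0.58 with 2i, so that the ratio differed by 1.18 between the conditions with little spread within either.

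The CCAN links CENP-A chromatin to the outer kinetochore. All 11 of its genes had a positive log2 fold change, against 50.3% of all genes, with a median of 0.74. For 8 of them (72.7%) both serum libraries were above both 2i libraries, against 20.5% of all genes. At least 2-fold higher in serum ESCs were 2, against 9.89% of all genes. Cenpk (chromosome 13, 105019035 to 105041728, plus strand, mm9) was the furthest, with 210 and 342 normalized counts with serum and 79.9 and 106 with 2i, a log2 fold change of 1.53 ± 0.57. Cenpp reached 276 and 376 normalized counts in the serum libraries, against 87.2 and 177 in the 2i libraries, a log2 fold change of 1.37 ± 0.58. Both genes were low in both 2i libraries. Cenph, which forms a subcomplex with Cenpk and Cenpi, was measured at 585 and 781 normalized counts with serum and at 392 and 404 with 2i, a log2 fold change of 0.76 ± 0.44. Its partner Cenpi had 503 and 742 with serum and 397 and 522 with 2i, where the groups overlapped. Cenpc1, which encodes CENP-C, the protein that contacts both CENP-A nucleosomes and the MIS12 complex, had 616 and 892 normalized counts with serum and 325 and 604 with 2i. Serum replicate 1 and 2i replicate 2 were nearly level, and the log2 fold change was 0.74 ± 0.51.

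The other CCAN genes depended on single libraries to unlike degrees. Cenpl, which pairs with Cenpn, reached 211 and 229 normalized counts in the serum libraries, against 211 and 60.1 in the 2i libraries. Only 2i replicate 2 was low, since serum replicate 1 exceeded 2i replicate 1 by less than 1 normalized count, and the log2 fold change of 0.96 ± 0.73 was 0.06 without that library. Cenpn, which reads CENP-A nucleosomes, was measured at 597 and 435 normalized counts with serum and at 244 and 338 with 2i, a log2 fold change of 0.83 ± 0.47. Cenpo and Cenpq, of the CENP-O group, had log2 fold changes of 0.50 ± 0.45 and 0.62 ± 0.47 with groups that did not overlap. Annotated exons of Cenpo share 16.5% of their 43-base words with Adcy3. Cenpt, which recruits the NDC80 complex by a route of its own, had the smallest value of the group. It had 826 and 470 normalized counts with serum and 642 and 371 with 2i, so that replicate 1 exceeded replicate 2 in both conditions, and the log2 fold change was 0.35 ± 0.53. Cenpm reached 684 and 385 normalized counts in the serum libraries, against 308 and 498 in the 2i libraries, which overlapped, with a log2 fold change of 0.39 ± 0.52.

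**Figure D2:**
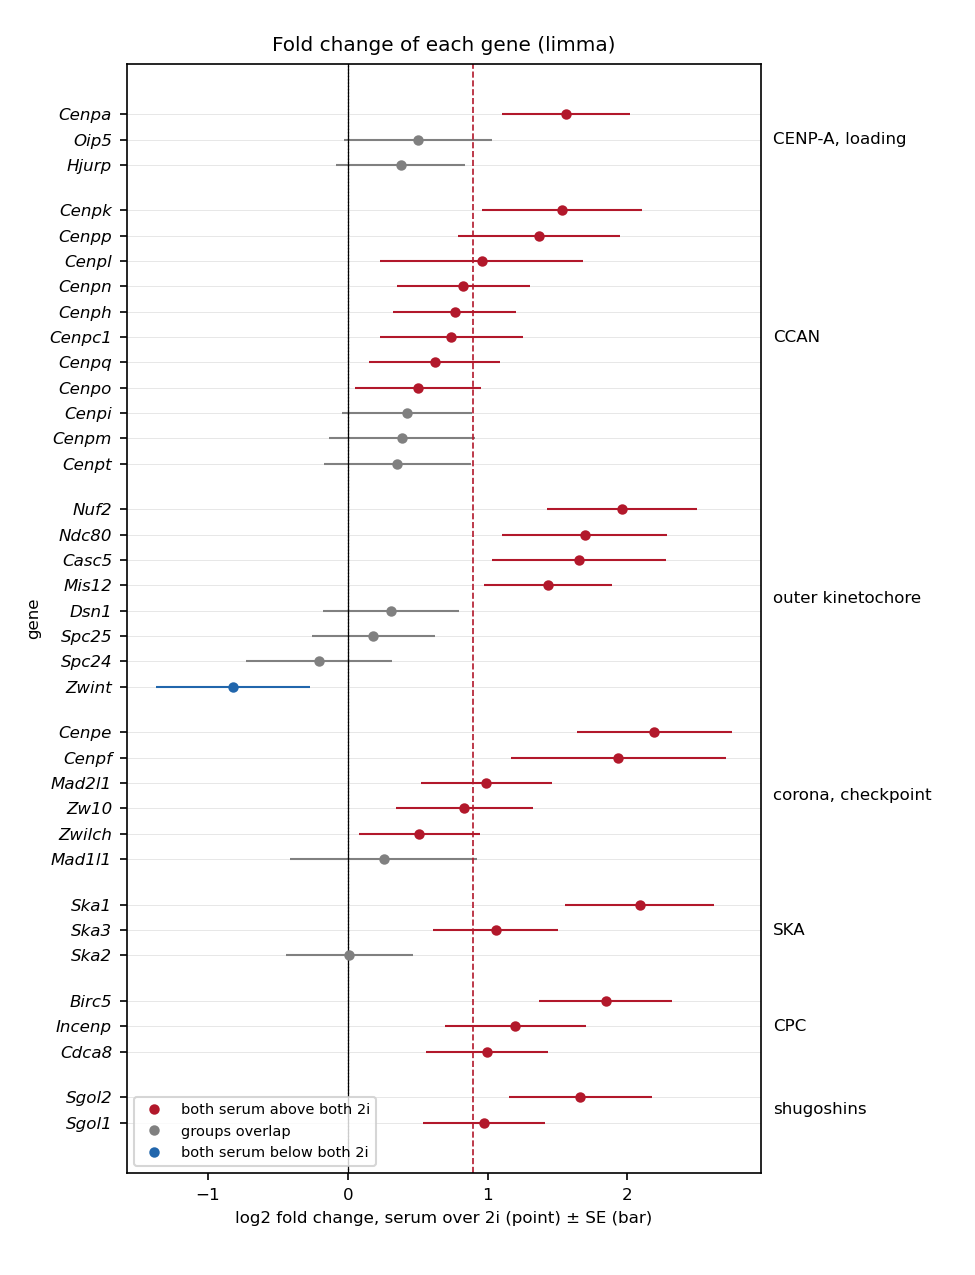
Log2 fold change, serum over 2i, of each centromere and kinetochore gene (points) with its standard error from limma (bars), by role; red points are genes whose serum values both exceed both 2i values, grey points overlap, and blue is below. The dashed line marks the median of the 36 genes, 0.90, and the dotted line the median of all genes tested, 0.0047; Cenpe is the furthest to the right at 2.19 and Zwint to the left at -0.82.

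The outer kinetochore was the role with the widest spread, and the subunits of its NDC80 complex differed. The NDC80 complex is a rod of 4 proteins in which NDC80 and NUF2 hold the microtubule and SPC24 and SPC25 the inner kinetochore. Nuf2 (chromosome 1, 171428065 to 171461595, minus strand, mm9) was measured at 646 and 1391 normalized counts with serum and at 212 and 277 with 2i, a log2 fold change of 1.96 ± 0.54. Ndc80 (chromosome 17, 71845440 to 71876197, minus strand, mm9) had 536 and 1075 normalized counts with serum and 164 and 334 with 2i, a log2 fold change of 1.69 ± 0.59. In both genes the lower serum library was above the higher 2i library, and serum replicate 2 was the highest of the 4. Spc24 reached 1050 and 1035 normalized counts in the serum libraries, against 1789 and 807 in the 2i libraries, a log2 fold change of -0.20 ± 0.52. Spc25 was measured at 557 and 779 normalized counts with serum and at 575 and 586 with 2i, a log2 fold change of 0.18 ± 0.44. For these partners the serum and 2i libraries overlapped.

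Ratios between the partners give the same values library by library, and their differences between conditions follow from the fold changes above. The log2 ratio of Nuf2 to Spc25, per kb of transcript, was -0.15 and 0.47 with serum and -1.80 and -1.44 with 2i. That of Ndc80 to Spc24 was -1.67 and -0.65 with serum and -4.15 and -1.98 with 2i. Both ratios were higher in both serum libraries, by 1.78 and 1.90 on average. By contrast the log2 ratio of Ndc80 to Nuf2, which sit side by side, was -0.14 and -0.24 with serum and -0.24 and 0.39 with 2i, and that of Spc24 to Spc25 also overlapped between the conditions. Apart from the pseudocount, a ratio within a library does not depend on its size factor. With 2 libraries against 2 an exact permutation test, two-sided, has a smallest p-value of 0.333, and the ratios are given without a test. Of the 9 ratios computed, chosen after the values were known, 4 did not overlap between the conditions. No share over other pairs of genes was computed beside this count, and it is not separate support for the fold changes.

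**Figure D3:**
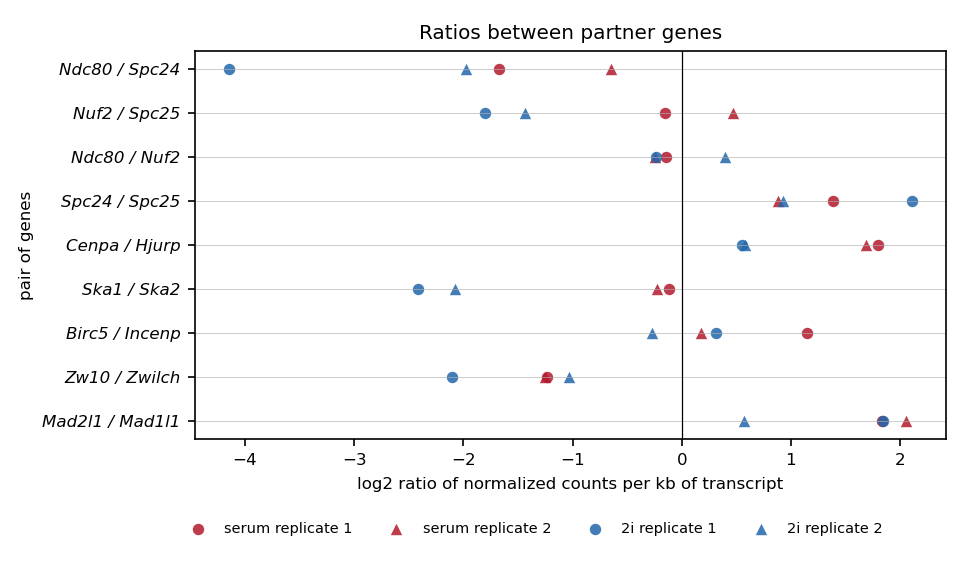
Log2 ratio of normalized counts per kb of transcript (horizontal axis) for 9 pairs of genes (vertical axis) in the 4 libraries; red marks are serum and blue marks 2i, circles replicate 1 and triangles replicate 2. Serum marks lie to the right of 2i marks for Ndc80 over Spc24, Nuf2 over Spc25, Cenpa over Hjurp and Ska1 over Ska2, and overlap with them for the other 5 pairs.

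The MIS12 complex and KNL1 join the NDC80 complex into one network. Mis12 (chromosome 11, 70833113 to 70840873, plus strand, mm9) had 829 and 1317 normalized counts with serum and 374 and 401 with 2i, a log2 fold change of 1.43 ± 0.46. Its partner Dsn1 reached 323 and 373 normalized counts in the serum libraries, against 223 and 351 in the 2i libraries, a log2 fold change of 0.31 ± 0.49. The groups were apart for Mis12 and overlapped for Dsn1. Casc5, which encodes KNL1, the platform for the checkpoint kinase BUB1, was measured at 1630 and 2921 normalized counts with serum and at 1140 and 419 with 2i. The log2 fold change was 1.66 ± 0.62. It came to 0.94 with 2i replicate 2 left out and to 2.38 with 2i replicate 1 left out. Zwint, which binds KNL1 and helps to hold the corona, had 1207 and 1318 normalized counts with serum and 1419 and 3503 with 2i. It was the only gene of the 36 with both serum libraries below both 2i libraries. Its log2 fold change of -0.82 ± 0.55 rested on 2i replicate 2 and was -0.17 without it.

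In the corona, the fibrous outermost layer, the large coiled-coil proteins differed most. Cenpe (chromosome 3, 134875527 to 134936504, plus strand, mm9), a kinesin that carries chromosomes along microtubules, reached 1744 and 3129 normalized counts in the serum libraries, against 725 and 359 in the 2i libraries. Its log2 fold change of 2.19 ± 0.55 was the largest of the 36, and it lay between 1.69 and 2.70 when single libraries were left out. Cenpf, a coiled-coil protein that accumulates in G2-phase, was measured at 3199 and 4600 normalized counts with serum and at 2188 and 459 with 2i. Its log2 fold change of 1.94 ± 0.77 had the largest SE of the 36, with 0.81 when 2i replicate 2 was left out and 3.06 when 2i replicate 1 was left out. Both genes were above in both serum libraries.

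The adaptors of the spindle assembly checkpoint, which delays anaphase until kinetochores are attached, were closer together. Mad2l1, which encodes the checkpoint effector MAD2, had 1532 and 2200 normalized counts with serum and 758 and 1123 with 2i, a log2 fold change of 0.99 ± 0.47. Mad1l1, which encodes its receptor MAD1, reached 657 and 812 normalized counts in the serum libraries, against 322 and 1159 in the 2i libraries, a log2 fold change of 0.26 ± 0.67. Mad2l1 was apart between conditions, whereas the 2i replicates of Mad1l1 lay on either side of serum and its direction turned to -0.67 without 2i replicate 1. Zw10 and Zwilch, subunits of the RZZ complex that brings dynein and MAD1 to the corona, had log2 fold changes of 0.83 ± 0.49 and 0.51 ± 0.43. Zwilch was measured at 1845 and 2371 normalized counts with serum and at 1581 and 1361 with 2i. Neither gene overlapped between the groups.

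The SKA complex, which helps kinetochores to hold on to shortening microtubules, also held subunits with unlike fold changes. Ska1, its microtubule-binding subunit, had 361 and 482 normalized counts with serum and 78.9 and 120 with 2i, a log2 fold change of 2.09 ± 0.53 and the second largest of the 36. Ska3 reached 658 and 844 normalized counts in the serum libraries, against 406 and 314 in the 2i libraries, a log2 fold change of 1.06 ± 0.45. Ska2 was measured at 445 and 642 normalized counts with serum and at 485 and 581 with 2i, a log2 fold change of 0.01 ± 0.45. The groups were apart for Ska1 and Ska3 and overlapped for Ska2, whose log2 fold change was too near 0 for its sign to be read. The log2 ratio of Ska1 to Ska2, per kb, was -0.11 and -0.23 with serum and -2.42 and -2.08 with 2i. The Ska1 and Ska2 transcripts were therefore near level in serum ESCs on this scale and far apart in 2i ESCs. The level of Ska2 is less certain, since 87.8% of the 43-base words of its annotated exons were its own and 7.58% were shared with Gm11491.

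All 3 genes of the chromosomal passenger complex, which places Aurora B kinase at the inner centromere to correct faulty attachments, were higher in both serum libraries. Birc5 (chromosome 11, 117710565 to 117717069, plus strand, mm9), which encodes survivin, had 2095 and 2135 normalized counts with serum and 795 and 436 with 2i, a log2 fold change of 1.84 ± 0.48. Incenp, the scaffold that activates Aurora B, reached 909 and 1823 normalized counts in the serum libraries, against 618 and 509 in the 2i libraries, a log2 fold change of 1.20 ± 0.51. Cdca8, which encodes borealin, was measured at 1775 and 1974 normalized counts with serum and at 1104 and 798 with 2i, a log2 fold change of 0.995 ± 0.44. Their kinase Aurkb, not one of the 36, had 389 and 325 normalized counts with serum and 354 and 290 with 2i. It overlapped between the conditions, with a log2 fold change of 0.15 ± 0.46, and is named because the complex is built around it.

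The shugoshins protect cohesin at the centromere until anaphase. Sgol2 reached 1350 and 2677 normalized counts in the serum libraries, against 703 and 511 in the 2i libraries, a log2 fold change of 1.66 ± 0.51. Sgol1 was measured at 777 and 978 normalized counts with serum and at 486 and 404 with 2i, a log2 fold change of 0.97 ± 0.44. Both were above in both serum libraries. The value of Sgol2 is uncertain, since 48.0% of the 43-base words of its annotated exons also belong to Kctd18, whereas over 90% were a gene's own for 33 of the 36 genes.

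Every serum library exceeded each 2i library for most of the 36 genes. The median log2 difference was 0.69 for serum replicate 1 over 2i replicate 1 and 1.03 for serum replicate 2 over 2i replicate 2, with 31 and 33 genes higher. Across the numbers it was 0.75 for serum replicate 1 over 2i replicate 2 and 1.03 for serum replicate 2 over 2i replicate 1, with 30 and 32 genes higher. Between replicates of 1 condition the signed median was smaller, 0.39 for serum replicate 2 over serum replicate 1 (29 genes higher) and 0.07 for 2i replicate 2 over 2i replicate 1. For 16 of the 36 genes, among them Cenpa, Ndc80, Nuf2, Mis12, Cenpe, Ska1 and Birc5, leaving out any single library moved the log2 fold change by at most 1.5 times, and for the other 20 it moved it further or turned it. Those included Incenp (0.70 to 1.70), Cenpc1 (0.29 to 1.19), Cenpp (0.86 to 1.87), Zw10 (0.41 to 1.26) and Zwilch (0.33 to 0.69). The near-zero 2i median hid opposed differences, since 20 of 36 genes were higher in 2i replicate 2, while CENP-A and its loading factors, the chromosomal passenger genes and the shugoshins were all lower there. Single genes ran from -2.25 (Cenpf) to 1.85 (Mad1l1) between the 2i replicates, so the signed medians do not show that replicates were closer gene by gene.

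**Figure D4:**
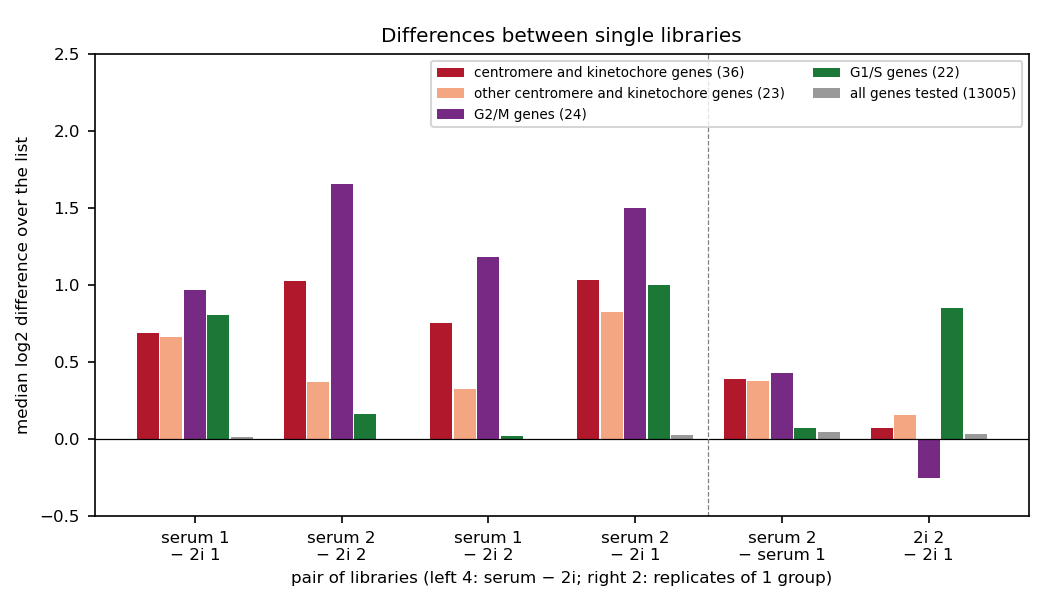
Median log2 difference over a list (vertical axis) between single libraries (horizontal axis), the left 4 serum minus 2i and the right 2 between replicates; red is the 36 centromere and kinetochore genes, orange 23 others of the same structures, purple 24 G2/M genes, green 22 G1/S genes and grey all 13005 genes. Red bars stand between 0.69 and 1.03 on the left and at 0.39 and 0.07 on the right, while green reaches 0.85 between the 2i replicates.

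Other genes of the same structures were lower in median. Of 23 further centromere and kinetochore genes, all tested, 19 (82.6%) were higher in serum ESCs, against 50.3% of all genes, with a median log2 fold change of 0.51. At least 2-fold higher were 9, against 9.89% of all genes. Both serum libraries were above both 2i libraries for 12 (52.2%), against 20.5% of all genes. After adjustment 0 passed with limma, 2 with DESeq2 (against 0.561% of all genes) and 0 with edgeR. At an unadjusted p-value under 0.05 (limma) and at least 2-fold, 6 were higher in serum ESCs, against 2.97% of all genes. At its ends stood Ttk, the checkpoint kinase MPS1, with a log2 fold change of 2.05 ± 0.48, and Cenpv at -0.42 ± 0.50. Without serum replicate 1 the median of these 23 genes was 0.83, and without 2i replicate 1 it was 0.29.

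Genes of the cell cycle outside the kinetochore gave the frame for these values. The lists of G2/M, G1/S and further kinetochore genes were chosen with earlier results of these data known. Of 24 G2/M genes, 22 (91.7%) were higher in serum ESCs, against 50.3% of all genes, with a median log2 fold change of 1.29. At least 2-fold higher were 14, against 9.89% of all genes. In this list 21 genes (87.5%) had both serum libraries above both 2i libraries, against 20.5% of all genes. Hmmr, a spindle protein, was at the upper end with 3312 and 6253 normalized counts with serum and 1056 and 631 with 2i, and Pttg1, which encodes securin, at the lower with 488 and 292 with serum and 480 and 619 with 2i. Of 22 G1/S genes, 21 (95.5%) were higher in serum ESCs, 4 at least 2-fold, with a median of 0.40. In this list 10 genes (45.5%) had both serum libraries above both 2i libraries, where 20.5% of all genes did. Rrm2, a subunit of ribonucleotide reductase, was at its upper end with a log2 fold change of 1.83 ± 0.52, and Cdt1, a licensing factor for replication, at its lower with -0.30 ± 0.61. The median of the G1/S genes was 0.85 for 2i replicate 2 over 2i replicate 1, larger than their median between the conditions. That of the kinetochore genes, where opposed differences cancelled, was not. The G1/S median came to 0.10 when 2i replicate 1 was left out and to 0.85 when 2i replicate 2 was, where the 36 kinetochore genes had 0.75 and 0.86, so that these 2 lists were level without 2i replicate 2. The G2/M median was at least 1.13 with any single library left out. No gene of either list passed after adjustment (limma). At an unadjusted p-value under 0.05 (limma) with at least a 2-fold higher value in serum ESCs there were 13 and 3, against 2.97% of all genes. DESeq2 called 6 and 1 after adjustment, all higher in serum ESCs, where it called 0.561% of all genes, and edgeR called 0 and 0. The share of sorted cells outside G1-phase was not measured in these files, and its part in the values was not tested.

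Levels per kb of transcript ranged widely within the structure. After Cenpa, the genes with the highest mean level were Spc24 (867 normalized counts per kb), Mad2l1 (813), Zwint (696) and Zwilch (605), and the lowest was Cenpl (40.0). In serum ESCs Cenpa had 1643 and 1306 normalized counts per kb and in 2i ESCs 621 and 397. Spc24 had 778 and 767 normalized counts per kb with serum and 1326 and 598 with 2i. Cenpa thus exceeded Spc24 in both serum libraries and lay below it in both 2i libraries.

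Transcripts of the 36 genes had a median length of 2672.5 bases and a GC content of 44.0%, against 3002 bases and 49.9% over the tested genes with a sequence. Over these genes, which share the same 4 libraries, Spearman's rho between log2 fold change and GC content was -0.25, against -0.31 over all genes. Corrected for GC content and transcript length, the 36 genes had a median of 0.69 and that of all genes -0.04, and 33 of 36 genes were higher in serum ESCs. The groups did not overlap, with serum above, for 22 of the 36 genes, against 18.4% of all genes. The correction moved the log2 fold change of 16 genes by over 1.5 times. Casc5 went to 0.96, Sgol2 to 1.07, Sgol1 to 0.55, Cenpc1 to 0.31, Cenpl to 0.42 and Zwilch to 0.23, while Cenpa was at 1.55 and Ska1 at 1.92.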

How the data were processed

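Total RNA of FACS-sorted G1-phase ESCs was depleted of ribosomal RNA and sequenced from random primers as single-end reads. The authors aligned reads to mm9 with Bowtie, estimated expression with MMSeq, and deposited a signal: counts per gene after division by the library's DESeq2 size factor. Tool versions and strand handling are not given in the sources used here. Because random primers and a transcript estimate were used, reads of near-identical or overlapping genes may be divided between them.

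All deposited values were whole multiples of 1 step per library (100% within 0.01 of a whole read). The step of serum replicate 1 was 1.0005, so its values were near whole as deposited. Whole-read totals were 26570098 and 18939401 in serum and 21649417 and 20421024 in 2i. Size factors recomputed from whole reads matched those deposited to within 4.7e-12.

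limma (version 3.58.1, R 4.3.3) was run with a variance trend on log2(normalized count + 1), which understates changes of low genes, for genes with a mean of at least 50 in either condition. The adjusted threshold was 0.05 (Benjamini-Hochberg) with a 2-fold change. The study used DESeq2. Since deposited values were scaled, edgeR (4.0.16) and DESeq2 (1.42.0) on whole reads were alternatives, as were other pseudocounts, minimums, scalings, no trend, a replicate block, a GC content and length correction (mgcv 1.9.3) and leaving out each library, where a lone library was assumed to vary like the other condition. The fit was tested on simulated data. Members and lists were chosen with earlier results of these data known. Any member may be named; of other lists, the genes at each end by fold change, and Aurkb was named after its values were seen. Genes were placed with GENCODE vM1 (mm9), and levels per kb used the longest annotated transcript. Promoters came from RefSeq (GRCm38.p6), matched by symbol or synonym.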

Additional observations from a re-analysis of the deposited data

How the results depend on the processing

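Over 18 alternatives the median log2 fold change of the 36 centromere and kinetochore genes stayed positive, between 0.69 (GC content and length correction) and 1.01 (without serum replicate 1), and with libraries left out it was 0.75 to 1.01. Upper quartile scaling moved the median of all genes to -0.12 and that of the 36 genes to 0.78. Genes of the list past the adjusted threshold numbered 0, except 1 with a replicate block (Cenpe, limma, adjusted p-value 0.030) and 4 with DESeq2. At an unadjusted p-value under 0.05 the count of 11 became 0 to 12 with libraries left out. Over all genes, 0 toward serum and 2 toward 2i became 73 and 178 with DESeq2, 44 and 159 with a replicate block and 2 and 7 with the block and a GC content and length correction; toward 2i the count was also 4 at a mean of at least 200, 1 without trend, 1 with a GC content and length correction, 0 with edgeR and 0 with each library left out. The cause was not tested. The replicate numbers were not shown to pair the samples, since 2 pairs alone exist (r = 0.48 between deviations of same-numbered libraries, 0.40 after GC content and length correction). With the block, limma also called 1 of the 23 other centromere and kinetochore genes, 4 of the 24 G2/M genes and 0 of the 22 G1/S genes, all higher in serum ESCs. Sign changed for Ska2, whose value was near 0, under TMM (-0.0025), upper quartile (-0.11) and quantile scaling (-0.049), GC content and length correction with or without the block (-0.41), edgeR (-0.0085) and single libraries left out (-0.25 to 0.28); for Spc24 (0.00059) and Spc25 (-0.061) under GC content and length correction with or without the block; for Mad1l1 with edgeR (-0.035) and DESeq2 (-0.025); and with a library left out for Spc24 (-0.78 to 0.37), Spc25 (-0.059 to 0.42), Dsn1 (-0.016 to 0.64), Mad1l1 (-0.67 to 1.18), Cenpm (-0.025 to 0.80) and Cenpt (-0.052 to 0.76). The SE of a single gene, 0.43 to 0.77 on the log2 scale, limits what 2 libraries per condition can show.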
